A study of Mus musculus with 6 samples.

Results

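The genes described here make, regulate, move and store cholesterol and fatty acids. They are 33 genes, chosen as a list of gene symbols: enzymes of the mevalonate and sterol pathway, the factors that sense sterols, enzymes of fatty acid synthesis, and proteins of sterol transport and storage. Each symbol matched 1 of the 53379 Ensembl gene identifiers in the count tables, and all 33 passed the filter on low counts. RNA was sequenced from regulatory T cells (Tregs), a CD4 lineage that expresses FOXP3 and dampens immune responses, of C57BL/6 mice aged 3 months. In 3 libraries, titled bKO and called KO here, the mice carried Foxp3YFP-Cre with JunbFlox/Flox. In the other 3 libraries (WT) they carried Foxp3YFP-Cre with Junb+/+, so both groups carry the Cre allele. This Cre is made under Foxp3, so the design aims to remove the floxed gene in Tregs and to keep it in other cells. The cells were purified by flow sorting with a gate that the labels do not give. The comparison asks which of these genes differ when Junb, which encodes one of the proteins that form AP-1, is targeted in Tregs.

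Cholesterol is built from acetyl units through mevalonate, isoprenoids, squalene and lanosterol, and fatty acids are built from citrate-derived acetyl-CoA. Both routes are controlled by the SREBP transcription factors, which the SREBP escort protein SCAP carries from the endoplasmic reticulum to the Golgi for cleavage when sterols are low, and which INSIG proteins hold back when sterols are high. LXR receptors, which sense oxidised sterols, induce the exporters ABCA1 and ABCG1. Dividing T cells raise this programme to build membranes, and in Tregs the mevalonate pathway is known to be needed for suppressive function.

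Library totals lay between 34707353 and 38508759 counts in KO and between 33784183 and 41231173 in WT, and the lowest count of a member in any library was 95. Junb stood at 57.1, 57.3 and 49.6 CPM (counts scaled by library size after TMM normalisation) in KO replicates 1 to 3, and at 87.1, 77.5 and 89.5 CPM in WT replicates 1 to 3. The labels do not say which bases the deletion removes. No KO library reached a WT library, and the log2 difference (KO minus WT) was -0.63 (SE 0.13, 95% interval -0.93 to -0.33, edgeR quasi-likelihood test, Benjamini-Hochberg adjusted p = 0.9999 over all genes). DESeq2 called Junb, with an adjusted p = 0.00417 and a log2 difference of -0.63. The sum of 10 Treg markers was 1272, 2218.5 and 2967.5 CPM in KO replicates 1 to 3. In WT it lay between 2721 and 3077 CPM. KO replicate 1 was the lowest library, and KO replicate 2 also lay below every WT library. Foxp3, among these markers, stood at 28.1, 29.4 and 39.0 CPM in KO replicates 1 to 3. In WT replicates 1 to 3 Foxp3 stood at 39.5, 32.7 and 36.6 CPM. All 10 Treg markers had a lower mean in KO. The sum of 8 general T cell markers was 3257, 3902 and 3702 CPM in KO replicates 1 to 3 and lay between 3686 and 4863 CPM in WT, with 1 of 8 higher by mean in KO. Markers of naive conventional CD4 T cells summed to 2391, 2054 and 1544 CPM in KO replicates 1 to 3 and to between 1418 and 1865 CPM in WT, with 8 of 9 higher by mean in KO. Those of CD8 T and NK cells summed to between 124 and 222 CPM in KO and between 85.8 and 184 CPM in WT, also with 8 of 9 higher by mean in KO. The sum of 10 B cell markers was 702, 622 and 543 CPM in KO replicates 1 to 3 and 189, 1134 and 131 CPM in WT replicates 1 to 3. The sum of 10 myeloid markers was 593, 957.5 and 404 CPM in KO replicates 1 to 3 and 272, 891 and 104 CPM in WT replicates 1 to 3. Of these markers 8 of 10 B cell genes and 10 of 10 myeloid genes had a higher mean in KO, no B cell marker was at 0 in any library, and Cd14 and Itgax were at 0 in WT replicate 3. The sum of 10 cell cycle genes overlapped between genotypes, between 227 and 408 CPM in KO and between 226 and 431 CPM in WT, with 9 of 10 higher by mean in KO. The part of these cells and signals in the values below was not tested. In such bulk RNA, fewer cells of a type and less RNA per cell cannot be told apart.

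As a group the 33 genes overlapped between KO and WT. Their score, the mean of log2(CPM + 1) over the members, was 4.71, 4.87 and 4.69 in KO replicates 1 to 3 and 4.75, 4.81 and 4.67 in WT replicates 1 to 3. The scores averaged 4.76 ± 0.101 in KO and 4.74 ± 0.0692 in WT (SD, n = 3 each), a difference of 0.015. KO replicate 2 had the highest score and WT replicate 3 the lowest. Of the 33 members 15 had a higher and 18 a lower log2 level in KO, where 50.9% of all genes tested were higher, with a median log2 difference of -0.033, beside a median of 0.0055 over the 20475 genes tested. With 1 library left out at a time, the median of the members lay between -0.043 and 0.014 and the score difference between -0.043 and 0.048, so neither kept a direction. Leaving out KO replicate 1, KO replicate 3 or WT replicate 1 turned the median positive, to 0.014, 0.0001 and 0.0099 in that order. By edgeR 0 of 33 passed an adjusted p of 0.05 (each had an adjusted p = 0.9999), and 0% of all genes did (0 of 20475, where limma-voom also called 0 and DESeq2 called 63 of the 23198 genes it gave an adjusted p). At an unadjusted p under 0.05 there were 2 members (6.06%), the fatty acid synthase gene Fasn and the last sterol enzyme gene Dhcr7, both lower in KO, beside 2.88% of all genes (1.48% lower in KO). Fasn and Dhcr7 were also the 2 members with an unadjusted p under 0.05 by limma-voom and by DESeq2, and neither tool called a member after adjustment (smallest adjusted p = 0.9999 and 0.323).

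**Figure D1:**
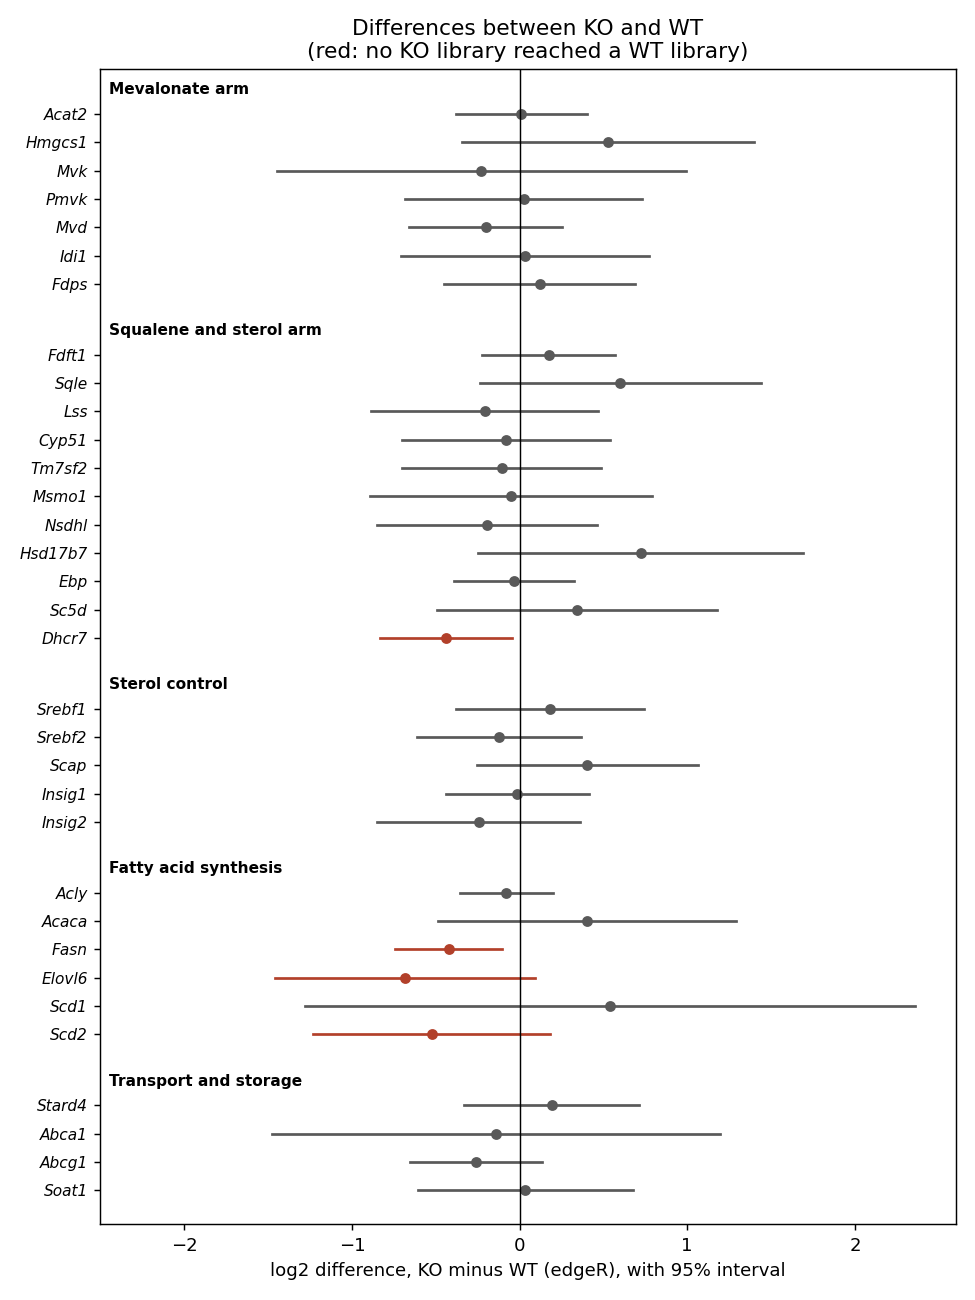
Log2 difference between KO and WT (x axis, KO minus WT, edgeR) of each of the 33 genes, with its 95% interval, in order of place in the pathway. The red genes Dhcr7, Fasn, Elovl6 and Scd2 are those whose KO libraries all lay below the WT libraries, and the intervals of Fasn and Dhcr7 alone leave out 0.

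Of the members, 4 had KO libraries that all lay on one side of the WT libraries, and all 4 were lower in KO: Fasn, Elovl6, Scd2 and Dhcr7. That is 12.1% of members, where 7.76% of all genes tested did not overlap, 4.07% with lower and 3.68% with higher values in KO. Of these 4 genes 3 belong to fatty acid synthesis. They stand for successive steps of it: FASN makes palmitate, ELOVL6 lengthens it to stearate and SCD2 puts in a double bond. The 95% intervals of Elovl6 (-1.46 to 0.09) and Scd2 (-1.23 to 0.18) include 0. The other fatty acid genes overlapped: Acly (log2 difference -0.08), Acaca (0.40) and Scd1 (0.54), the other stearoyl-CoA desaturase gene. Whether these steps change together was not tested. Without KO replicate 1 the genotypes did not overlap in 8 members and in 16.6% of all genes, and genes that separate in all libraries must separate there too.

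The promoter of Fasn is shown because Fasn had the smallest p of the members. That of Hmgcs1 is shown because it holds the only sterol regulatory element-like match among the members with a window. A stretch of Dhcr7 is shown because it holds an AP-1 site. Msmo1 also holds an AP-1 site, 127 bases before its start and not shown, and it overlapped between genotypes (log2 difference -0.05). The stretches were taken from RefSeq promoter windows on GRCm38.p6, which gave 26 of the 33 members. Fdps, Fdft1, Sqle, Stard4, Scd1, Scd2 and Abcg1 had no window. The Fasn stretch is chr11:120824548-120824797 (minus strand) and the Hmgcs1 stretch chr13:119690101-119690350 (plus strand), each the 250 bases before the annotated start and outside all GENCODE exons. The Dhcr7 stretch is chr7:143830106-143830135 (plus strand), before a downstream start of Dhcr7 and inside an annotated Dhcr7 exon. All are written 5′ to 3′ on the strand of the gene, and capitals mark matches on either strand to TCACNCCAC (sterol regulatory element-like), CCAAT (the NF-Y box), CACGTG (E-box) and TGACTCA (AP-1 site).
Fasn: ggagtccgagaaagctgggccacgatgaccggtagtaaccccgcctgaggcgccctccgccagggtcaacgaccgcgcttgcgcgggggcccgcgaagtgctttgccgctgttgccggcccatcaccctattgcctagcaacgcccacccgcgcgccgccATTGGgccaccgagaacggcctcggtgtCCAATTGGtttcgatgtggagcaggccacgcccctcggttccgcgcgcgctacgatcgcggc
Hmgcs1: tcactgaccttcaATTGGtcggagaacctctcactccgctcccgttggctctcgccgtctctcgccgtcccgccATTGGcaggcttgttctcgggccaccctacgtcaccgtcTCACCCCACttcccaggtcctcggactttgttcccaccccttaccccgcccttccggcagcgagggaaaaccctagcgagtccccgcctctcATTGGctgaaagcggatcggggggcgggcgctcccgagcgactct
Dhcr7: tcTGAGTCAgctcactgccttcaCCAATca
In the Fasn stretch 3 NF-Y boxes start 90, 62 and 59 bases before the gene's start, and the last 2 overlap on opposite strands. In Hmgcs1 the sterol regulatory element-like match starts 137 bases before the start, between NF-Y boxes at 176 and 45 bases, and another NF-Y box lies at 237 bases. The AP-1 match of Dhcr7 starts 106 bases before that start, with an NF-Y box at 85 bases.

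NF-Y is a factor that binds CCAAT and acts beside SREBP at sterol genes. Its box was found in 20 of the 26 members with a window (76.9%) and in 37.5% of the 27025 genes in the table. The E-box was found in 6 members (23.1%) and in 6.86% of all genes, the sterol regulatory element-like motif in 1 member (3.85%) and in 1.22% of all genes, and the AP-1 site in 2 members (7.69%), Dhcr7 and Msmo1, and in 5.16% of all genes. A match is a run of letters and was not tested as a binding site, and sites outside these 250 bases were not searched.

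Levels are compared between genes per kilobase of exon (the union of a gene's GENCODE exons). Abcg1, a sterol exporter of the plasma membrane, stood highest in both genotypes, at 30.2 ± 3.76 CPM per kilobase in KO and 36.2 ± 6.37 in WT (SD, n = 3 each). The sterol isomerase gene Ebp (23.7 ± 2.57 in KO, 24.3 ± 2.95 in WT) and Acly, which encodes the enzyme that splits citrate into acetyl-CoA (22.6 ± 0.740 in KO, 23.9 ± 2.40 in WT), came next and differed from each other by less than their spread. Acat2 was the fourth in both genotypes, at 16.4 ± 1.07 CPM per kilobase in KO and 16.3 ± 2.67 in WT. The lowest were Hsd17b7, Abca1 and Acaca, all between 0.595 and 1.44 CPM per kilobase by group mean. By group mean the order of the upper 4 genes was the same in KO and WT, though Ebp and Acly cannot be told apart.

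**Figure D2:**
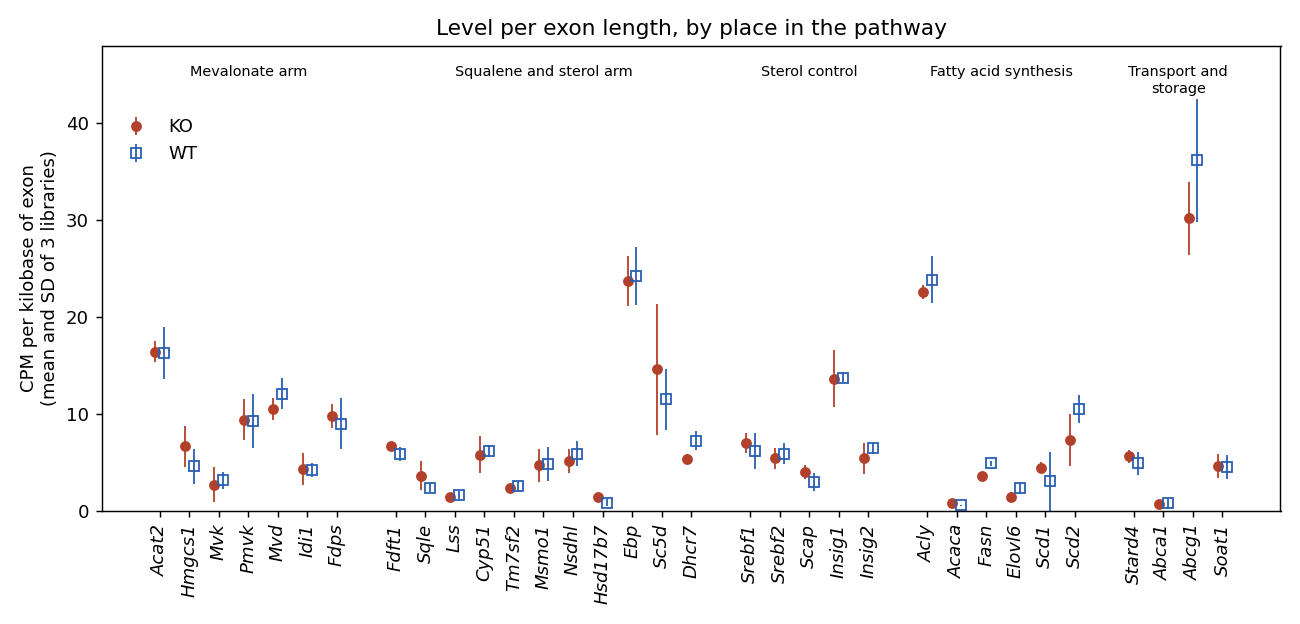
Mean level per exon length (y axis, CPM per kilobase, bars are the SD of 3 libraries) of the 33 genes in KO (filled circles) and WT (open squares), in order of place in the pathway. Abcg1, Ebp, Acly and Acat2 stand highest in both genotypes, and Hsd17b7, Abca1 and Acaca lowest. The places of Acat2 and Acaca are uncertain, as part of their sequence occurs in other genes.

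The highest library had a median of 1.86 times the lowest library over the members, and 2.02 times over the 19023 genes above 0 in each library. The steadiest member was Acly (1.20 times) and the most variable Scd1 (13.3 times), followed by Mvk (4.03 times), Abca1 (3.81 times) and Elovl6 (3.10 times). KO replicate 2 held the highest value of 8 members, WT replicate 1 of 8 and WT replicate 2 of 7. Each of the 6 libraries was the highest for at least 2 members and the lowest for at least 3.

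**Figure D3:**
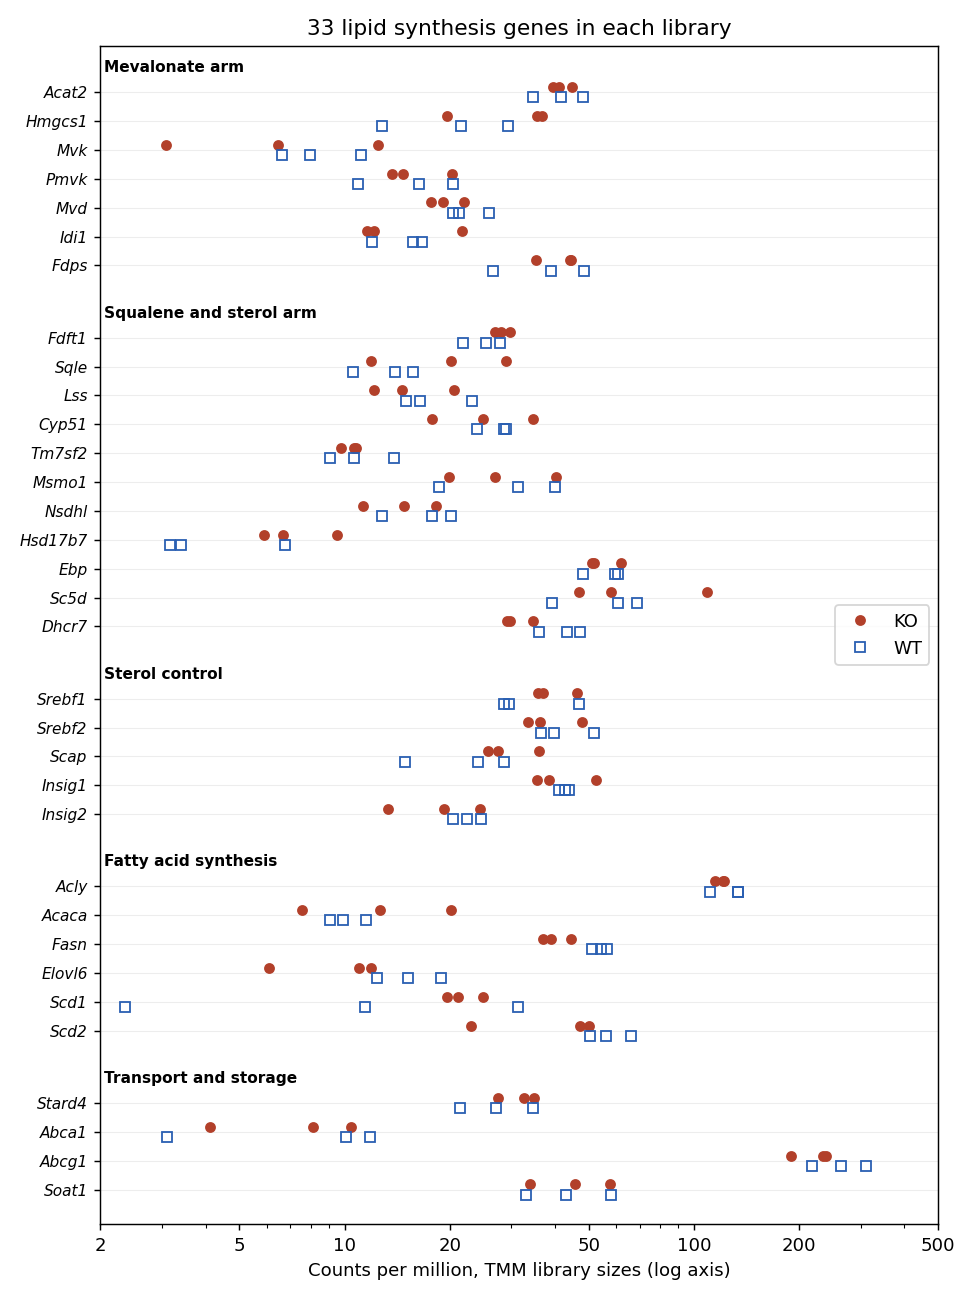
CPM (x axis, log scale) of each of the 33 genes in each of the 3 KO (filled circles) and 3 WT (open squares) libraries. The KO and WT points mix for 29 genes and separate for Dhcr7, Fasn, Elovl6 and Scd2, and Scd1 has the widest spread, between 2.35 and 31.4 CPM in WT.

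The 7 genes of the mevalonate arm, which leads from acetyl units to farnesyl diphosphate, overlapped between genotypes without exception. Acat2, whose enzyme joins acetyl units in the cytosol, was the most abundant per length, with 44.9, 41.0 and 39.6 CPM in KO replicates 1 to 3 and 48.2, 34.6 and 41.8 CPM in WT replicates 1 to 3. Its log2 difference was 0.01 (95% interval -0.38 to 0.40), and every KO library lay inside the WT range. The enzyme of Hmgcs1 makes HMG-CoA, the substrate of the step that commits carbon to mevalonate, and the gene stood at 19.7, 35.6 and 36.7 CPM in KO replicates 1 to 3. In WT replicates 1 to 3 it stood at 21.6, 29.4 and 12.8 CPM. KO replicates 2 and 3 lay above all WT libraries while KO replicate 1 lay within them, and the log2 difference was 0.53 (SE 0.37, 95% interval -0.34 to 1.40), or 0.26 without WT replicate 3 and 0.83 without WT replicate 2. Mvd, the decarboxylase gene, had 19.6 ± 2.16 CPM in KO and 22.5 ± 2.98 CPM in WT. Fdps, whose product makes farnesyl diphosphate, had 41.3 ± 5.13 CPM in KO and 38.0 ± 11.0 CPM in WT. The isomerase gene Idi1 and the kinase genes Mvk and Pmvk also overlapped, at 15.1 ± 5.69, 7.33 ± 4.73 and 16.2 ± 3.56 CPM in KO, against 14.8 ± 2.47, 8.58 ± 2.34 and 15.9 ± 4.74 CPM in WT. The median log2 difference of the arm was 0.026, with 5 members higher and 2 lower by mean.

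Of the 11 genes of the squalene and sterol arm, which makes cholesterol from farnesyl diphosphate, 4 had a higher and 7 a lower mean in KO (median log2 difference -0.049). Dhcr7 encodes 7-dehydrocholesterol reductase, the last step to cholesterol, and lies on chromosome 7 at positions 143823145 to 143848410 (GRCm38, plus strand). It stood at 29.7, 34.6 and 29.2 CPM in KO replicates 1 to 3 and at 43.3, 47.3 and 35.9 CPM in WT replicates 1 to 3. All KO libraries lay below all WT libraries, with a gap of less than 2 CPM between KO replicate 2 and WT replicate 3. For Dhcr7 the log2 difference was -0.44 (SE 0.17, 95% interval -0.83 to -0.04), a fold of 0.739.

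Sqle encodes squalene epoxidase, a rate-limiting oxidation, and had a higher mean in KO with overlapping libraries. It stood at 11.9, 29.0 and 20.2 CPM in KO replicates 1 to 3 and at 14.0, 10.6 and 15.7 CPM in WT replicates 1 to 3. KO replicate 2 was the highest library and KO replicate 1 lay inside the WT range, and the log2 difference was 0.60 (SE 0.35, 95% interval -0.24 to 1.44), or 0.26 without KO replicate 2. Within the libraries that share a file number (described with Elovl6 and Scd2) it was 1.19 and -0.014. Hsd17b7, a sterol ketone reductase gene of low abundance, stood at 6.65, 9.48 and 5.87 CPM in KO replicates 1 to 3 and at 3.41, 6.75 and 3.17 CPM in WT replicates 1 to 3. WT replicate 2 lay within the KO range and the other 2 WT libraries below it, and Hsd17b7 had a log2 difference of 0.72 (SE 0.41, 95% interval -0.25 to 1.69). The order of the 6 libraries by Hsd17b7 was that of the sum of myeloid markers, an order shared by 0.484% of all genes tested. This was noticed after the values were seen, when the order of every member was compared with that of each marker list. Ebp, the most abundant gene of the arm per length, had 51.0, 61.6 and 51.8 CPM in KO replicates 1 to 3 and 60.5, 48.2 and 59.4 CPM in WT replicates 1 to 3. Its log2 difference was -0.03 (95% interval -0.39 to 0.33).

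The desaturase gene Sc5d, which acts just before Dhcr7, had 1 library far above the rest, KO replicate 3, at 109 CPM. The other KO libraries had 46.9 and 57.7 CPM, and the WT libraries 39.2, 60.5 and 68.6 CPM. Without KO replicate 3 its log2 difference was -0.11 in place of 0.34. Fdft1, which encodes squalene synthase, had 28.3 ± 1.42 CPM in KO and 25.0 ± 2.98 CPM in WT, and its library order was that of the summed CD8 T and NK cell markers, as for 0.0928% of all genes tested. The cyclase gene Lss had 15.8 ± 4.33 CPM in KO and 18.2 ± 4.34 CPM in WT, and the demethylase gene Cyp51 25.7 ± 8.36 CPM in KO and 27.2 ± 2.77 CPM in WT. The methyl sterol oxidase gene Msmo1 had 29.0 ± 10.3 CPM in KO and 30.0 ± 10.7 CPM in WT. The reductase gene Tm7sf2 and the decarboxylating dehydrogenase gene Nsdhl stood at 10.4 ± 0.544 and 14.8 ± 3.51 CPM in KO, against 11.2 ± 2.43 and 16.9 ± 3.75 CPM in WT. None of these 7 genes separated the genotypes.

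The genes that sense and control sterols overlapped between KO and WT, all 5 of them. Srebf1, which gives the SREBP1 factors that favour fatty acid genes, stood at 46.3, 35.8 and 36.9 CPM in KO replicates 1 to 3 and at 29.5, 28.6 and 47.0 CPM in WT replicates 1 to 3. WT replicate 3 lay above all KO libraries and the other 2 WT libraries below them, and the log2 difference was 0.18 (SE 0.24, 95% interval -0.38 to 0.74). Srebf2, which gives the SREBP2 factor that favours cholesterol genes, stood at 36.3, 33.4 and 47.9 CPM in KO replicates 1 to 3 and at 51.6, 36.6 and 39.6 CPM in WT replicates 1 to 3. Srebf2 differed by a log2 value of -0.12 (SE 0.21, 95% interval -0.61 to 0.37). Per kilobase Srebf2 stood at 0.615 to 1.02 times Srebf1 in KO libraries and at 0.661 to 1.37 times in WT libraries, so neither gene was higher in every library.

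Insig1, which SREBP itself induces and which holds the SCAP complex back, was the most abundant of this group per length. It stood at 38.5, 35.5 and 52.5 CPM in KO replicates 1 to 3 and at 44.0, 41.0 and 42.7 CPM in WT replicates 1 to 3, with the WT libraries inside the KO range and a log2 difference of -0.01 (SE 0.18, 95% interval -0.44 to 0.41). Insig2, its paralogue, stood at 24.4, 13.3 and 19.3 CPM in KO replicates 1 to 3 and at 24.6, 22.4 and 20.5 CPM in WT replicates 1 to 3, with a log2 difference of -0.24 (SE 0.26, 95% interval -0.85 to 0.36). Per kilobase Insig1 exceeded Insig2 in each of the 6 libraries, by 1.77 to 3.06 times in KO and by 2.01 to 2.34 times in WT. Scap had 29.8 ± 5.50 CPM in KO and 22.5 ± 6.97 CPM in WT.

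Of the 6 genes of fatty acid synthesis 4 had a lower mean in KO (median log2 difference -0.25). For 3 of them the genotypes did not overlap, where 7.76% of all genes tested did not, 4.07% with lower values in KO. Of the 6 genes only Fasn had an unadjusted p under 0.05 by edgeR. Whether this group differs from other genes was not tested. Fasn, on chromosome 11 at positions 120805846 to 120824547 (GRCm38, minus strand), stood at 44.4, 39.1 and 37.0 CPM in KO replicates 1 to 3 and at 51.1, 56.2 and 54.1 CPM in WT replicates 1 to 3. All KO libraries lay below all WT libraries, and both genotypes were tight, with a coefficient of variation of 9.41% in KO and 4.79% in WT. The Fasn log2 difference was -0.42 (SE 0.14, 95% interval -0.74 to -0.10), a fold of 0.747, with an adjusted p = 0.323 in DESeq2. Fasn overlaps no other annotated exon, and none of the 50-base stretches of its transcripts, the length of a read, occurs in a transcript of another gene. Without KO replicate 1, the library with the lowest sum of Treg markers, its log2 difference was -0.50.

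Elovl6, on chromosome 3 at positions 129532355 to 129638495 (plus strand), had 6.07, 11.9 and 11.0 CPM in KO replicates 1 to 3 and 18.8, 12.4 and 15.2 CPM in WT replicates 1 to 3. KO replicate 1 was the lowest library, and KO replicate 2 lay less than 1 CPM under WT replicate 2. For Elovl6 the log2 difference was -0.68 (SE 0.33, 95% interval -1.46 to 0.09), and without KO replicate 1 it was -0.44. Scd2, on chromosome 19 at positions 44293674 to 44306864 (plus strand), had 50.0, 47.0 and 23.0 CPM in KO replicates 1 to 3 and 66.1, 50.4 and 56.1 CPM in WT replicates 1 to 3. KO replicate 1 lay less than 1 CPM under WT replicate 2, and KO replicate 3 was far below the rest. Its log2 difference was -0.52 (SE 0.30, 95% interval -1.23 to 0.18), and without KO replicate 3 it was -0.25. The names of the deposited files hold a further number, the same for KO replicate 2 and WT replicates 1 and 2, and another for KO replicates 1 and 3 and WT replicate 3. What it stands for is not given, and no test was run within these subsets. Within the subsets the log2 differences were -0.44 and -0.41 for Fasn, -0.38 and -0.28 for Dhcr7, -0.34 and -0.82 for Elovl6, and -0.29 and -0.71 for Scd2 (their direction follows from the separation of all libraries).

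**Figure D4:**
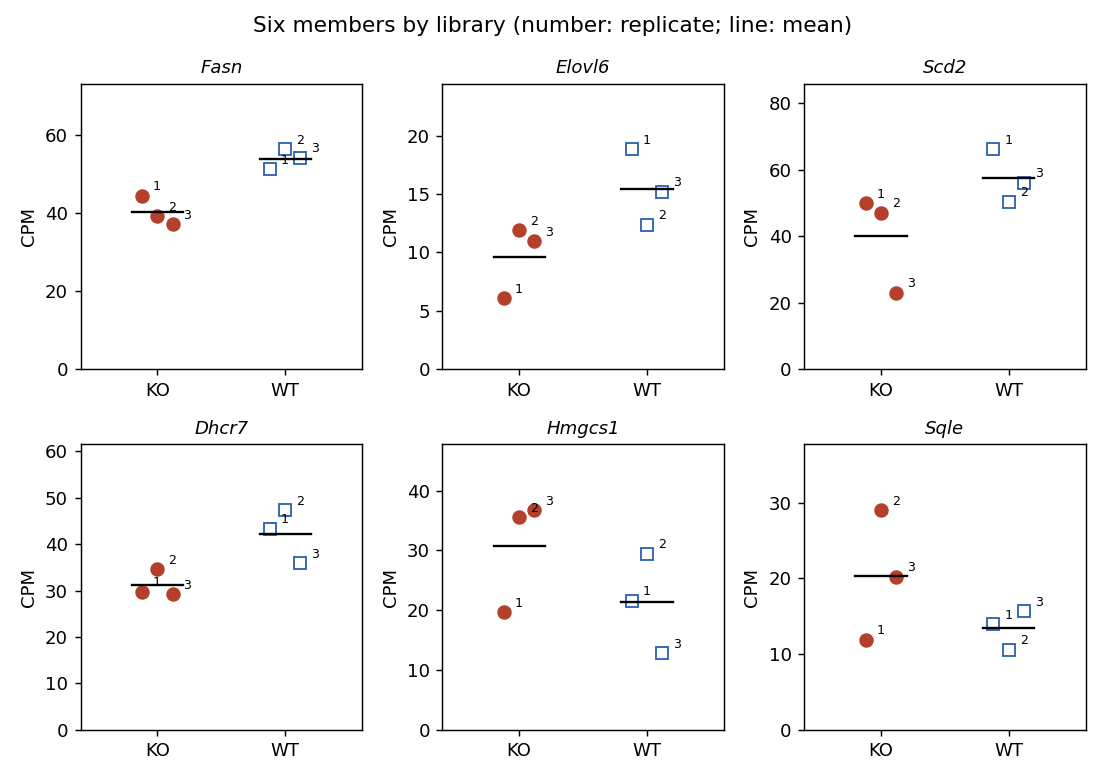
CPM (y axis, from 0) of 6 members in each KO (filled circles, left) and WT (open squares, right) library, with the replicate number and the mean of the group as a line. Fasn, Elovl6, Scd2 and Dhcr7 separate with lower values in KO, while Hmgcs1 and Sqle have higher means in KO but overlap.

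Scd1, the other stearoyl-CoA desaturase gene, did not separate the genotypes. It stood at 24.9, 21.0 and 19.6 CPM in KO replicates 1 to 3 and at 11.4, 31.4 and 2.35 CPM in WT replicates 1 to 3. The KO libraries were close together and lay inside a WT range that ran over 13.3 times, and Scd1 had a log2 difference of 0.54 (SE 0.77, 95% interval -1.28 to 2.36). The difference turned on single WT libraries: it was 1.67 without WT replicate 2 and 0.021 without WT replicate 3, and within the subsets by file number it was 0.14 and 2.78. The order of the 6 libraries by Scd1 was the same as by the sum of B cell markers, from WT replicate 2 down through KO replicates 1, 2 and 3 to WT replicate 1 and WT replicate 3. This match was noticed after the values were seen, 1 of the 33 members (Scd1) had it, and 0.264% of all genes tested did. Every member was compared with each marker list, so the share for a single list understates how often some match would arise. Hsd17b7 and Fdft1 each matched another list, and the Treg, general T cell, naive CD4 and cell cycle lists matched no member. Per kilobase Scd2 exceeded Scd1 in each of the 6 libraries, by 1.05 to 2.001 times in KO and by 1.44 to 21.3 times in WT. Of the 50-base stretches of Scd1 4.56% and of Scd2 3.97% occur in another gene, in Scd3, Scd4 or each other among them.

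**Figure D5:**
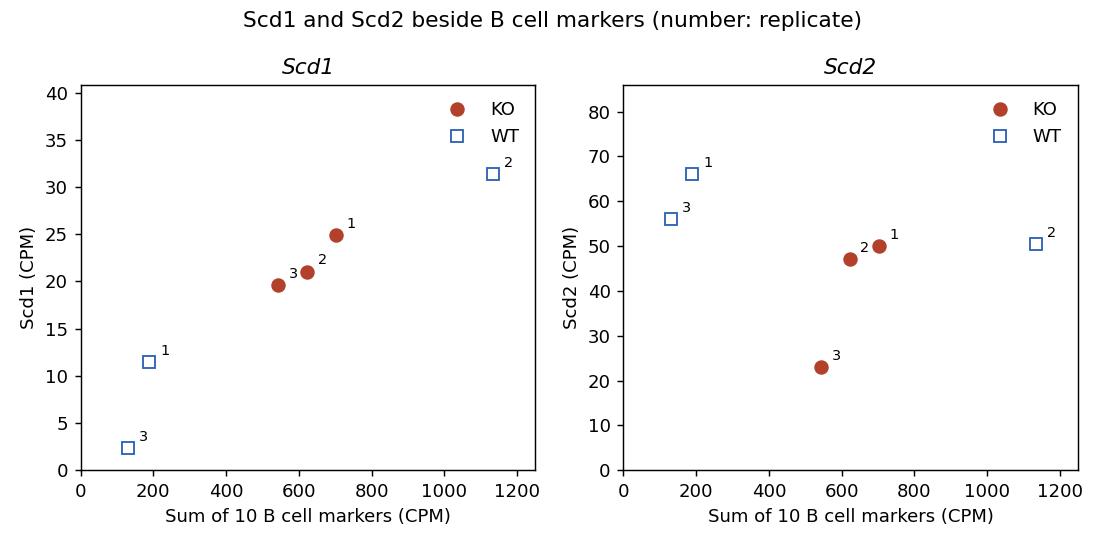
CPM of Scd1 (left) and Scd2 (right) on the y axes against the sum of 10 B cell marker genes in CPM (x axes) in each KO (filled circles) and WT (open squares) library, numbered by replicate. Scd1 has the same library order as the B cell markers, from 2.35 CPM in WT replicate 3 to 31.4 CPM in WT replicate 2, and Scd2 does not.

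Acly, the most abundant fatty acid gene per length, had 121, 115 and 122 CPM in KO replicates 1 to 3 and 133, 134 and 111 CPM in WT replicates 1 to 3. WT replicate 3 lay below all KO libraries and the other WT libraries above them, and the log2 difference was -0.08 (SE 0.12, 95% interval -0.36 to 0.20). Acaca, the acetyl-CoA carboxylase gene of the step before FASN, had 13.4 ± 6.33 CPM in KO and 10.2 ± 1.22 CPM in WT, with KO replicate 2 the highest and KO replicate 3 the lowest of all libraries. The Acaca log2 difference was 0.40 (95% interval -0.48 to 1.29), and -0.0085 without KO replicate 2. The intervals of Acly and Acaca both span lower and higher levels in KO, so no direction can be given for these genes before Fasn. Of the 50-base stretches of Acaca 30.4% occur in another gene, most of them in Gm5182, and its value is uncertain.

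In transport and storage, Abcg1 had the highest count of any member, between 7014 and 10765 per library. KO replicates 1 to 3 had 239, 234 and 189 CPM and WT replicates 1 to 3 had 311, 263 and 218 CPM, and the log2 difference was -0.26 (SE 0.17, 95% interval -0.65 to 0.13). WT replicates 1 and 2 lay above all KO libraries, and WT replicate 3 lay within the KO range. Abca1, the other exporter that LXR induces, stood at 4.11, 10.5 and 8.14 CPM in KO replicates 1 to 3 and at 3.09, 11.8 and 10.1 CPM in WT replicates 1 to 3. Its log2 difference was -0.14 (SE 0.56, 95% interval -1.47 to 1.20), so differences of more than 2-fold either way lie within its interval. Stard4, which encodes a sterol carrier of the cytosol, had 31.6 ± 3.79 CPM in KO and 27.7 ± 6.65 CPM in WT. Soat1, whose enzyme makes cholesteryl esters for storage, had 45.7 ± 11.9 CPM in KO and 44.6 ± 12.5 CPM in WT.

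Of 36 other genes of lipid synthesis, sterol handling and their control, 34 were tested, 15 with a higher and 19 with a lower mean in KO (median log2 difference -0.069), and 0 passed the adjusted test. Mbtps2 encodes the site-2 protease that frees SREBP from the membrane and was the member of this list higher in KO without overlap. It stood at 17.3, 19.6 and 13.7 CPM in KO replicates 1 to 3 and at 8.07, 12.5 and 8.35 CPM in WT replicates 1 to 3 (log2 difference 0.81, SE 0.28). Mbtps1, the site-1 protease gene of the same pathway, was lower in KO without overlap, at 83.3 ± 3.91 CPM in KO and 98.2 ± 4.34 CPM in WT (log2 difference -0.24). The libraries of these protease genes thus separated in opposite directions, neither past the adjusted test. The interval of Mbtps1 (-0.49 to 0.02) includes 0, so no direction can be given for it, while that of Mbtps2 (0.16 to 1.46) leaves out 0. Whether these protease genes differ in opposite directions was not tested. Ggps1, whose enzyme makes geranylgeranyl diphosphate from farnesyl diphosphate, was lower without overlap at 38.0 ± 4.92 CPM in KO and 47.6 ± 3.35 CPM in WT. The desaturase gene Fads2 was also lower without overlap, at 0.354 ± 0.319 CPM in KO and 1.65 ± 0.889 CPM in WT, under 3 CPM in every library, and Mbtps2 and Fads2 were the genes of this list with an unadjusted p under 0.05. The genotypes did not overlap in 4 of the 34 genes tested, 11.8%, where 7.76% of all genes did not.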

How the data were processed

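The submitters' processing notes list the tools STAR 2.3, featureCounts and bcl2fastq 2.19.0.316 and the build mm10. The authors deposited raw read counts per Ensembl gene, 1 table per library. Libraries were made with SMARTer ultra-low-input and NEBNext ChIP-Seq kits and read as 50-base single reads, per the labels' protocols. Which annotation and counting options were used, strand included, is not given here, and no molecular identifiers are named, so counting error is a lower limit. Symbols, positions and exons came from GENCODE M21 (GRCm38), which matched 53274 of 53379 identifiers. Of the members 11 share exon bases with another annotated gene (Hmgcs1, Idi1, Fdps, Fdft1, Lss, Cyp51, Tm7sf2, Srebf1, Scap, Scd2 and Elovl6) and are uncertain to that extent. Stretches of 50 bases shared with other genes made up 39.1% of Acat2, 30.4% of Acaca, 26.5% of Fdft1, 26.2% of Fdps, 25.3% of Idi1 and 11.6% of Hmgcs1, and less than 10% of each other member.

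KO and WT counts were compared with edgeR 4.0.16 (R 4.3.3): filterByExpr, TMM, a quasi-likelihood fit (robust) on genotype alone, its F test (two-sided), and p-values adjusted by Benjamini-Hochberg over all 20475 genes tested at 0.05. The common dispersion of the edgeR fit gave a model coefficient of variation of 51.0%. Measured between the libraries of a genotype, the median coefficient of variation over genes was 24.85% in KO and 25.5% in WT. Alternatives used limma-voom (limma 3.58.1) and DESeq2 1.42.0, other filters and size factors, each library left out, a replicate block, and a term for a number shared by the deposited tables' names. Members and lists were chosen with earlier results of these data known. All members are named; values in every library are given for members without overlap, the 6 smallest p, the most abundant of each role and 11 genes of textbook interest. Other lipid genes are named where genotypes did not overlap or the unadjusted p was under 0.05. Nothing in the labels ties each library to a mouse of its own, so the p-values may reflect technical spread only.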

Additional observations from a re-analysis of the deposited data

How the results depend on the processing

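No setting run with edgeR or limma-voom called a member, and DESeq2 called 63 genes, Junb among them, and no member. Leaving out 1 library at a time, 5 to 8 members did not overlap, against 4 with all libraries. In the same settings the share of all genes that did not overlap was 14.7% to 19.2%, against 7.76% with all libraries. The same replicate number in both genotypes names no shared mouse or day in the labels, so the libraries were not treated as pairs. Correlations of deviations between same-numbered libraries were -0.13, 0.289 and 0.0875. Between KO and WT libraries of different number they lay between -0.299 and 0.201. With a replicate block, Idi1 had a log2 difference of -0.012, and with limma-voom -0.011, against 0.03 in edgeR. With a term for the number shared by table names, Pmvk had -0.083 and Msmo1 0.25. The cause was not tested. The log2 difference changed sign when 1 library was left out for 16 members, with these lowest and highest values: Mvk (-0.85 to 0.14), Pmvk (-0.18 to 0.24), Idi1 (-0.32 to 0.19), Fdps (-0.086 to 0.34), Lss (-0.44 to 0.0025), Cyp51 (-0.35 to 0.12), Tm7sf2 (-0.24 to 0.069), Msmo1 (-0.36 to 0.21), Ebp (-0.13 to 0.026), Sc5d (-0.11 to 0.56), Srebf2 (-0.29 to 0.040), Insig1 (-0.21 to 0.097), Acat2 (-0.10 to 0.13), Acaca (-0.0085 to 0.69), Abca1 (-0.53 to 0.20) and Soat1 (-0.17 to 0.26). Without a change of sign, the log2 difference moved by over 1.5 times for Hsd17b7 (0.50 to 1.155), Srebf1 (0.052 to 0.45), Scap (0.18 to 0.61), Insig2 (-0.47 to -0.043) and Abcg1 (-0.38 to -0.13), among others. With 3 libraries a genotype, an exact permutation test of a single value cannot go below 0.1.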
